A study of Mus musculus with 5 samples.

Results

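The platelet-derived growth factor (PDGF) family comprises 6 of the 20355 genes listed in these data, the ligand genes Pdgfa, Pdgfb, Pdgfc and Pdgfd and the receptor genes Pdgfra and Pdgfrb. They were taken by symbol and followed across cell classes and fibroblast states of the mouse colon mesenchyme, the connective tissue that lies under the gut epithelium. Cells of untreated C57/BL6 mice aged 10 weeks were profiled by Drop-seq, in which single cells are caught in droplets with barcoded beads and each captured RNA molecule gets a unique molecular identifier (UMI). The epithelium had been removed with EDTA and DTT, and the remaining tissue was digested with Collagenase XI and Dispase. There was 1 group and no treatment, with 2 biological replicates in 5 droplet collections (1A and 1B from the first replicate, 2A, 2B and 2C from the second). The labels do not give the number of animals behind a replicate. Since the tests took replicate as a block, p-values measure how much the differences between classes or states varied between these 2 suspensions. They do not measure the spread between animals.

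PDGF ligands are secreted dimers that draw receptor chains together and start tyrosine kinase signalling. PDGF-A acts on the alpha receptor, PDGF-B on both receptors, and PDGF-C and PDGF-D are secreted with a CUB domain that proteases must cut away before they can bind. Endothelial PDGF-B is known for recruiting pericytes through the beta receptor, and PDGF-A, made by the epithelium of the developing gut, is known for acting on mesenchyme that carries the alpha receptor.

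The collections held 1636550 to 3345732 UMIs on 1190 to 2139 barcodes, and no collection stood apart in depth, with medians of 1226 to 1455.5 UMIs per retained cell. Of 7935 barcodes 5982 were retained, and 6 barcode sequences occurred in more than 1 collection among them. The retained cells held 1511 UMIs of Pdgfra, 857 of Pdgfa, 482 of Pdgfrb, 236 of Pdgfb, 138 of Pdgfd and 63 of Pdgfc. Levels are therefore given as CPM, the usual scaling of a gene's UMIs by all UMIs of the summed cells of a class, as mean ± SD of the 2 biological replicates. In all, 10 classes had enough cells to test (named "like" a cell type from their markers, such as Col1a1 and Dcn, Rgs5 and Kcnj8, Sox10 and S100b, or C1qa and Csf1r): 3157 fibroblast-like, 575 blood endothelial-like, 474 macrophage-like, 389 T/NK/ILC-like (T, natural killer or innate lymphoid), 299 enteric glia-like, 244 smooth muscle-like, 238 pericyte-like, 229 B cell-like, 166 lymphatic endothelial-like and 121 dendritic cell-like cells. Summed fibroblast markers in the other 9 classes were at 3.05 to 28.4% of their level in fibroblast-like cells, highest in smooth muscle-like cells.

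The genes lie on separate loci. In the GENCODE M21 annotation of GRCm38, the assembly also called mm10, Pdgfra spans chr5:75152292-75198215 on the plus strand and Pdgfa chr5:138976014-138997370 on the minus strand. Pdgfb spans chr15:79995874-80014977 (minus), Pdgfc chr3:81036416-81214040 (plus) and Pdgfd chr9:6168584-6378850 (plus). Pdgfa overlaps the antisense gene 6330403L08Rik, which is also listed in these data, and since the strand setting of the counting was not given their reads could not be told apart. RefSeq promoter windows (GRCm38.p6) were matched for 4 of the 6 genes. The windows of Pdgfra, whose UMIs lay almost wholly in 1 class, and of Pdgfa, which was found in many classes, are shown for context, from 250 bases before to 50 bases after the annotated start (chr5:75152001-75152300, plus strand, and chr5:138994895-138995194, minus strand, the second of 2 Pdgfa windows). Capitals mark GC boxes (GGGCGG, searched on both strands, so also CCGCCC).
Pdgfra: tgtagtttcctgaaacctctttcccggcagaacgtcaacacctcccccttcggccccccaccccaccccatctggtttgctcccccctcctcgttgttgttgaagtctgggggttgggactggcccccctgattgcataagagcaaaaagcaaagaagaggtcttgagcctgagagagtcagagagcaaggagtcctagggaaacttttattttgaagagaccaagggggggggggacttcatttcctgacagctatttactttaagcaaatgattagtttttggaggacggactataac
Pdgfa: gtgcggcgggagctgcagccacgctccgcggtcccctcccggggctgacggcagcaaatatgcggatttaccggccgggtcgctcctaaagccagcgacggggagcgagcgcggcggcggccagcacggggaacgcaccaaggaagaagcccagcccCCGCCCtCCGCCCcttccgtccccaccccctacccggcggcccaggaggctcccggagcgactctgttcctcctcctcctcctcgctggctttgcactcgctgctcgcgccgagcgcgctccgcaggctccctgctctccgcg
The Pdgfra window held 5 CpG dinucleotides and no GC box, and the Pdgfa window 37 CpG dinucleotides and 2 GC boxes. The other Pdgfa window (chr5:138994232-138994531, minus strand) held 24 CpG dinucleotides and 1 GC box. Of 32851 mouse windows of the same length 35.7% held a GC box, and the median window had 7 CpG dinucleotides.

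**Figure D1:**
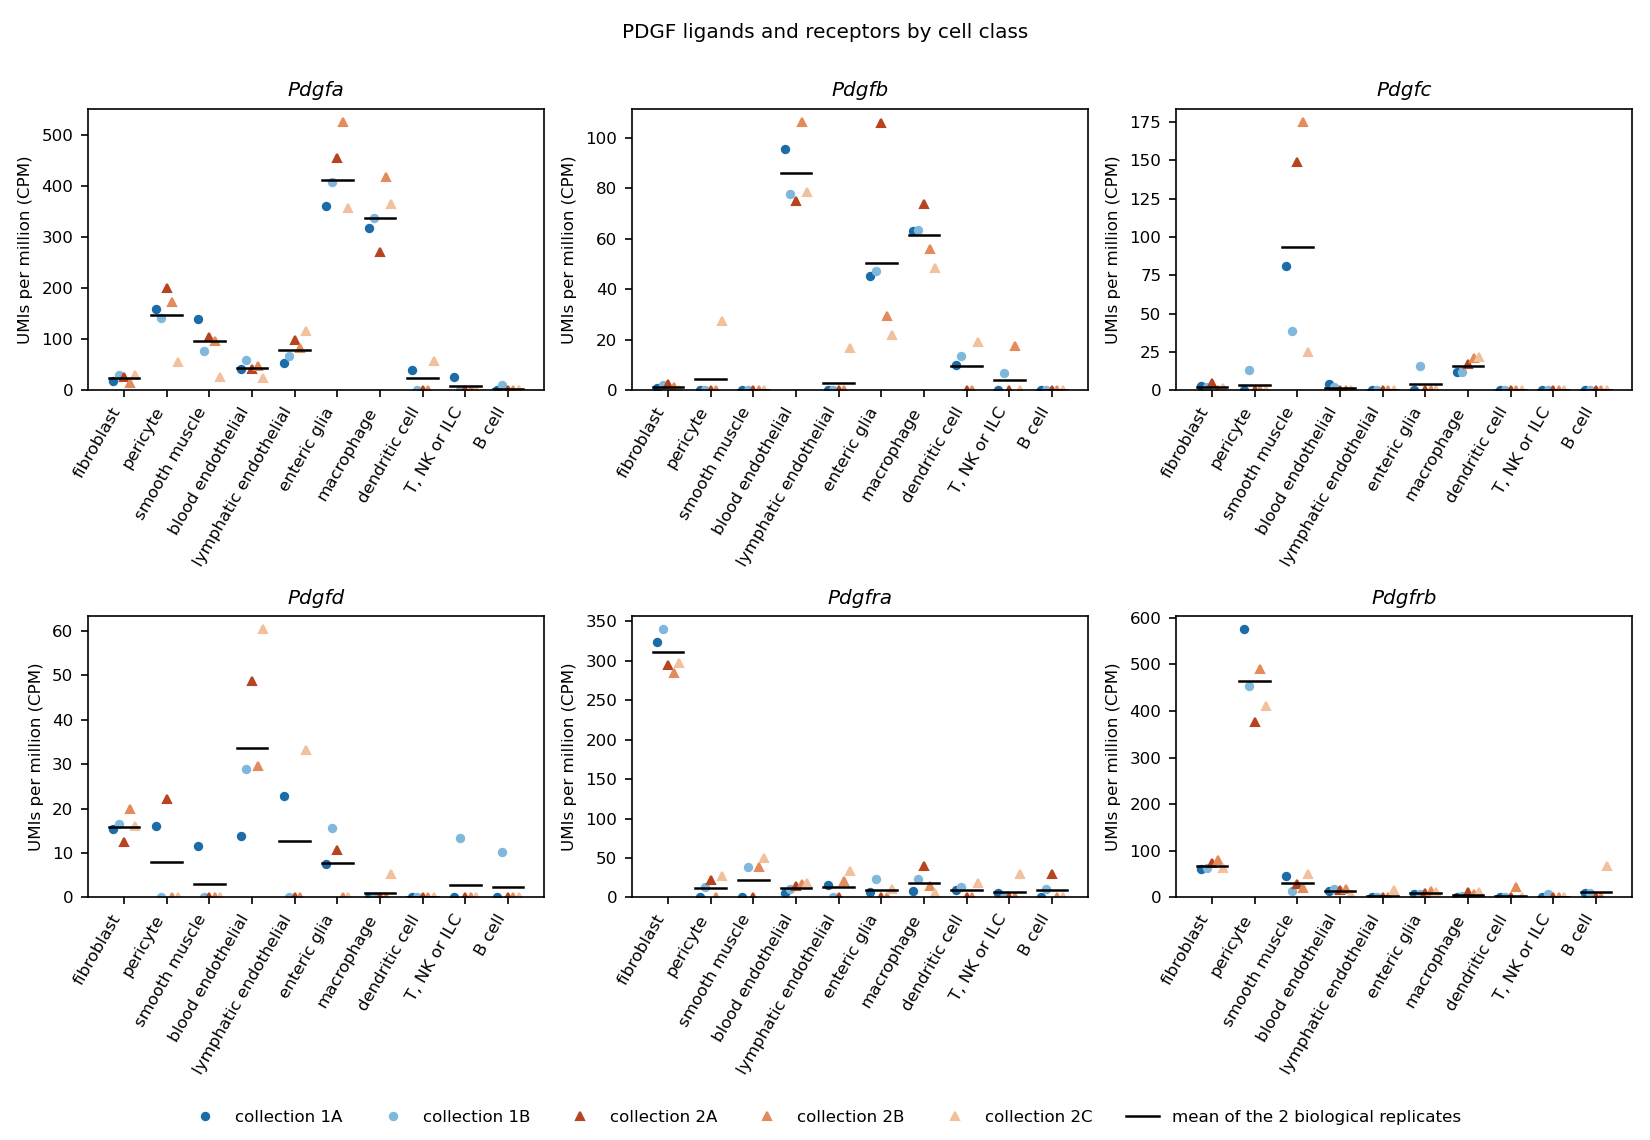
Levels of the 6 PDGF genes in 10 cell classes. The y axis is CPM (linear, a separate scale per gene), circles are the 2 collections of biological replicate 1, triangles the 3 of replicate 2, and bars the mean of the 2 replicates; Pdgfra stands out in fibroblast-like cells (312 CPM), Pdgfrb in pericyte-like cells (465 CPM) and Pdgfa in glia-like and macrophage-like cells (412 and 338 CPM).

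Each PDGF gene had its own distribution over the classes. Pdgfra marked fibroblast-like cells and Pdgfrb pericyte-like cells, with a lower level in fibroblast-like cells. Pdgfa was highest in enteric glia-like and macrophage-like cells, Pdgfb in blood endothelial-like, macrophage-like and glia-like cells, and Pdgfc in smooth muscle-like cells. Of 50 tests of a member in a class against the mean of the others (5 members, since Pdgfd did not pass the gene filter), 12 were called higher and 4 lower. That is 24% and 8%, against a background of 23.2% and 13.3% over all genes. Higher calls were thus near the share of any gene, and lower calls were below it. Of the 5 members, 2 (Pdgfb and Pdgfc) had a class at 0 UMIs and could not be called lower in the other classes. That is 40%, against 21.1% of all genes. The distributions themselves are what follows.

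Pdgfra encodes the alpha receptor, which binds PDGF-A, PDGF-B and PDGF-C chains. It was at 323.8, 339.8, 294.4, 284.7 and 297.4 CPM in fibroblast-like cells of collections 1A, 1B, 2A, 2B and 2C, and no collection of any other tested class exceeded 49.98 CPM. The groups thus did not overlap. How many of all genes separate in this way was not counted. The mean was 312 ± 27.1 CPM, against 21.7 ± 4.93 CPM in smooth muscle-like cells, the next highest (log2 fold change 4.06 ± 0.37 SE, adjusted p = 2.6e-24, edgeR; 21.9% of all genes passed). Fibroblast-like cells passed against all 9 other classes, the largest adjusted p being 1.1e-23 (over all pairs of classes 38.9% of gene tests passed), and against the mean of the others the log2 fold change was 4.99 ± 0.16 (adjusted p = 2.9e-124), where 34.2% of all tested genes were called higher. Only the fibroblast-like sums reached the level that the gene filter asked of Pdgfra, so that call was in part set by the filter.

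The other classes were at 6.33 to 21.7 CPM, and no neighbours in that order differed beyond their spread. Pdgfra in these classes was at 1.76 to 6.97% of its fibroblast level, where the 8 fibroblast markers were at 3.05 to 28.4%. In smooth muscle-like cells these shares were 6.97% for Pdgfra (7 UMIs) and 28.4% for the markers. In macrophage-like cells they were 5.73% (3.40 to 9.05%, 18 UMIs) and 4.58%. Whether free RNA or doublets gave these UMIs was not tested.

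Pdgfrb encodes the beta receptor, which binds PDGF-B and PDGF-D and is a defining receptor of mural cells. Its gene spans chr18:61045150-61085061 on the plus strand of GRCm38. In pericyte-like cells it was at 575, 453, 377, 490.6 and 409.9 CPM in collections 1A, 1B, 2A, 2B and 2C, and in fibroblast-like cells at 60.9, 63.0, 73.6, 79.5 and 62.2 CPM. Every pericyte value was above every fibroblast value, and how many of all genes separate in this way was not counted. The means were 464.5 ± 61.2 and 66.7 ± 6.98 CPM (log2 fold change 2.51 ± 0.25, adjusted p = 3.9e-21, edgeR; 26.4% of all genes passed), and pericyte-like cells passed against all 9 other classes, the largest adjusted p being 3.8e-18. Against the mean of the others Pdgfrb was higher in pericyte-like cells (5.54 ± 0.29, adjusted p = 4.8e-62), where 14.1% of all genes were called higher, and in fibroblast-like cells (2.76 ± 0.26, adjusted p = 9.1e-23).

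Smooth muscle-like cells followed with 31.0 ± 0.79 CPM. Fibroblast-like cells were above them (1.33 ± 0.46, adjusted p = 0.013), while smooth muscle-like cells and blood endothelial-like cells, at 14.5 ± 1.72 CPM, did not differ beyond their spread (0.93, interval -0.29 to 2.15). Pericyte markers in fibroblast-like cells stood at 1.42% of their pericyte level, and Pdgfrb there at 14.3% (12.8 to 16.0%). In blood endothelial-like cells the shares were 3.03% for the markers and 3.16% for Pdgfrb (2.00 to 4.73%). Pdgfrb was called lower in T/NK/ILC-like cells (1 UMI in 389 cells), a call that was lost in 6 of 20 alternatives. Because they were the largest class, fibroblast-like cells held 64.5% of all Pdgfrb UMIs and pericyte-like cells 24.9%.

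**Figure D2:**
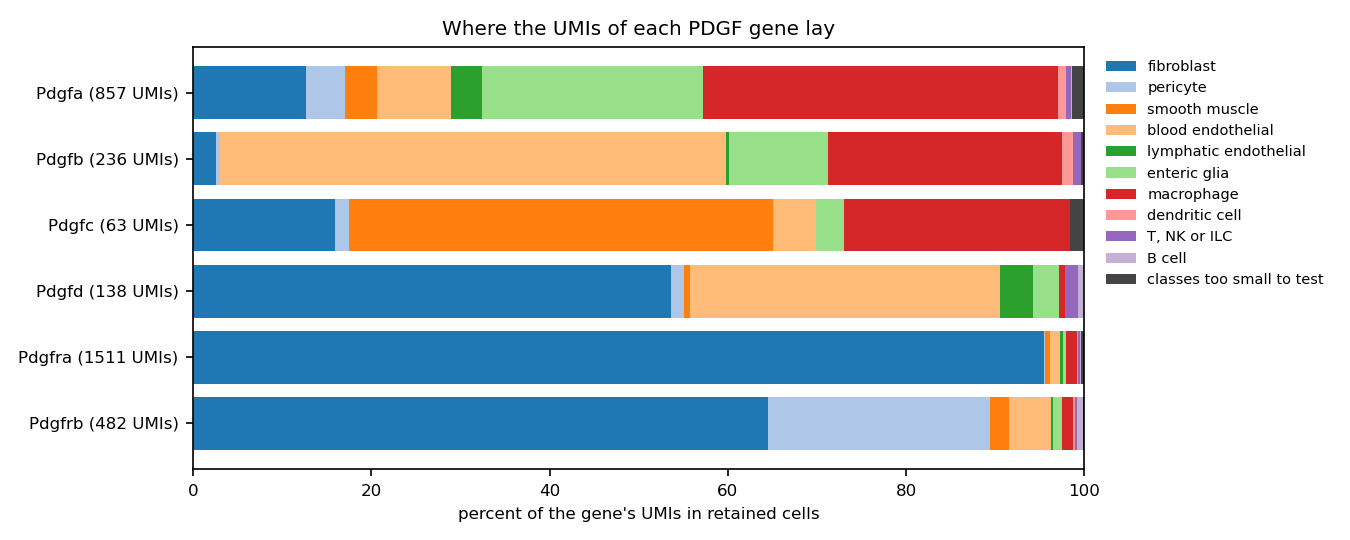
Distribution of the UMIs of each PDGF gene over the cell classes. The x axis is the percent of the gene's UMIs in retained cells and each colour is a class; fibroblast-like cells hold 95.4% of Pdgfra and 64.5% of Pdgfrb UMIs, blood endothelial-like cells 56.8% of Pdgfb UMIs, and macrophage-like cells 39.9% of Pdgfa UMIs.

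In single cells, UMIs of Pdgfra were found in 973 of 3157 fibroblast-like cells (30.8%, 29.2 to 32.5%) at a median depth of 1290 UMIs, and in 3 of 389 T/NK/ILC-like cells (0.771%) at a median of 1238. With each cell thinned to 600 UMIs, which left out 267 and 34 shallower cells, the shares were 16.3% and 0.845%. Pdgfrb was found in 89 of 238 pericyte-like cells (37.4%, 31.5 to 43.7%, median depth 941.5 UMIs) and in 278 fibroblast-like cells (8.81%, 7.87 to 9.85%). Thinned, these were 28.8% and 4.15%, against 0 of 355 T/NK/ILC-like cells, which allows a share of cells with a UMI of up to 0.845% (3 of 355) and sets no limit on expression. UMIs of both receptors were found together in 94 fibroblast-like cells. Pdgfrb UMIs were in 9.66% of the fibroblast-like cells with Pdgfra UMIs and in 8.42% of those without. In pericyte-like cells 2 cells had both and 87 had Pdgfrb alone.

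Pdgfa encodes the PDGF-A chain. Its values in enteric glia-like cells were 361, 408.5, 455, 526 and 357.5 CPM in collections 1A, 1B, 2A, 2B and 2C, and those in macrophage-like cells 319, 337, 272, 419 and 365 CPM. These ranges overlapped. The means of 412 ± 38.6 and 338 ± 13.9 CPM did not differ beyond their spread (log2 fold change 0.22, interval -0.11 to 0.56, adjusted p = 0.32, edgeR; 48.2% of all genes passed between these classes). Macrophage-like cells passed against pericyte-like cells, the third in order at 148 ± 2.86 CPM (1.44 ± 0.26, adjusted p = 3.3e-07), and glia-like cells against 8 of 9 classes.

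Below them Pdgfa graded down without a break that passed the test, through smooth muscle-like (95.7 ± 19.4 CPM), lymphatic endothelial-like (79.4 ± 29.3), blood endothelial-like (44.3 ± 8.56), dendritic cell-like (23.5 ± 1.02) and fibroblast-like cells (23.2 ± 0.73). The step from fibroblast-like cells to T/NK/ILC-like cells (7.26 CPM, 5 UMIs) passed (1.59 ± 0.60, adjusted p = 0.023), and B cell-like cells held 1 UMI. Against the mean of the others Pdgfa was higher in glia-like (3.41 ± 0.19, adjusted p = 4.3e-55; background 24.2%), macrophage-like (3.16 ± 0.17, adjusted p = 2.1e-60; background 28.1%), pericyte-like (1.56 ± 0.34, adjusted p = 5.8e-05) and smooth muscle-like cells (0.94 ± 0.35, adjusted p = 0.031; background 19.0%). The smooth muscle call was lost in 7 of 20 alternatives, among them those without collections 1A, 2A or 2B (adjusted p = 0.061, 0.096 and 0.061).

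Pdgfa was called lower in fibroblast-like (-1.07 ± 0.37, adjusted p = 0.0100; background 13.4%), T/NK/ILC-like (-2.84 ± 0.65, adjusted p = 7.7e-05) and B cell-like cells (-4.35 ± 0.83, adjusted p = 2.0e-06). All of the 5 UMIs of the T/NK/ILC-like class came from collection 1A and the B cell UMI from 1B. Without either collection 1 of these classes stood at 0 UMIs, so that the test could not call Pdgfa lower in any other class, and the call in fibroblast-like cells was lost. Glial markers in macrophage-like cells were at 0.597% of their glial level, and Pdgfa at 82.2% (73.7 to 91.4%). UMIs of Pdgfa were found in 41.8% of glia-like cells and 40.9% of macrophage-like cells, or 18.2% and 17.6% when thinned to 600 UMIs, against 0.563% of T/NK/ILC-like cells. Only 22 epithelial-like cells remained after the depletion, with 2 Pdgfa UMIs.

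Pdgfb encodes the PDGF-B chain. It was at 95.5, 77.6, 75.0, 106 and 78.4 CPM in blood endothelial-like cells of the 5 collections, at 63.1, 63.5, 73.7, 55.9 and 48.3 CPM in macrophage-like cells, and at 45.2, 47.1, 106, 29.2 and 21.7 CPM in glia-like cells. Endothelial values were all above the macrophage values, but the difference of the means, 85.9 ± 1.61 against 61.3 ± 2.82 CPM, did not pass (log2 fold change 0.42, interval -0.18 to 1.03, adjusted p = 0.29, edgeR; 52.3% of all genes passed between these classes). Nor did macrophage-like cells pass against glia-like cells, at 50.5 ± 6.18 CPM (0.34, interval -0.46 to 1.14). How many of all genes separate endothelial from macrophage values in every collection was not counted. Glia-like cells were above dendritic cell-like cells (9.74 ± 2.35 CPM, 3 UMIs; 2.38 ± 0.79, adjusted p = 0.0088).

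The other 7 classes held 6 UMIs or fewer each, and B cell-like and smooth muscle-like cells none. Set against smooth muscle-like cells, blood endothelial-like cells were at least 9.28-fold higher, taking 3 UMIs over the class as the floor. Pdgfb was called higher against the mean of the others in blood endothelial-like (adjusted p = 8.3e-30; background 30.3%), macrophage-like (adjusted p = 5.4e-18) and glia-like cells (adjusted p = 1.1e-09). Lymphatic endothelial-like cells, which carried the blood endothelial markers at 30.4% of their blood endothelial level, had 1 Pdgfb UMI (2.97%, 0.0751 to 16.5%). In macrophage-like and glia-like cells those markers were at 1.71% and 1.68%, and Pdgfb at 71.2% and 58.6%.

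Pdgfc encodes a latent ligand of the alpha receptor. Smooth muscle-like cells had 81.1, 38.4, 149, 175 and 24.99 CPM in the 5 collections, from 30 UMIs in all, and macrophage-like cells 11.8, 11.9, 17.0, 20.9 and 21.5 CPM from 16 UMIs. The lowest smooth muscle value lay above the highest macrophage value, but it was 1 UMI in 30 cells of collection 2C, against 4 UMIs. The share of all genes that separate in this way was not counted. The means were 93.4 ± 46.1 and 15.8 ± 5.59 CPM (log2 fold change 2.35 ± 0.59, adjusted p = 4.0e-04, edgeR; 46.3% of all genes passed here), and smooth muscle-like cells passed against all 9 other classes. Pdgfc passed the gene filter through smooth muscle-like cells alone, so this call was in part set by the filter, and in 6 of 20 alternatives it was not tested. Macrophage-like cells were also called higher than the mean of the others (adjusted p = 1.7e-04). They did not pass against glia-like cells, the next in order with 2 UMIs (2.01 ± 1.11, adjusted p = 0.15). In 4 classes there was no UMI, and against the largest of them, T/NK/ILC-like cells, smooth muscle-like cells were at least 17.0-fold higher. Pericyte-like cells, with smooth muscle markers at 44.3% of the smooth muscle level, had 1 UMI (4.21%, 0.106 to 23.4%).

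Pdgfd encodes the latent ligand of the beta receptor. It did not pass the gene filter over the classes and has no test there beside the fit without a filter. Values in blood endothelial-like cells were 13.9, 28.8, 48.8, 29.5 and 60.3 CPM (48 UMIs) and in fibroblast-like cells 15.4, 16.5, 12.5, 19.9 and 16.2 CPM (74 UMIs). The groups overlapped through the endothelial value of collection 1A. Without the filter the log2 fold change was 0.94 (adjusted p = 0.068), where 55.3% of the genes that passed the filter differed. Lymphatic endothelial-like cells had 12.7 ± 1.25 CPM from 5 UMIs, macrophage-like cells 1 UMI and dendritic cell-like cells none, while fibroblast-like cells held 53.6% of all Pdgfd UMIs.

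**Figure D3:**
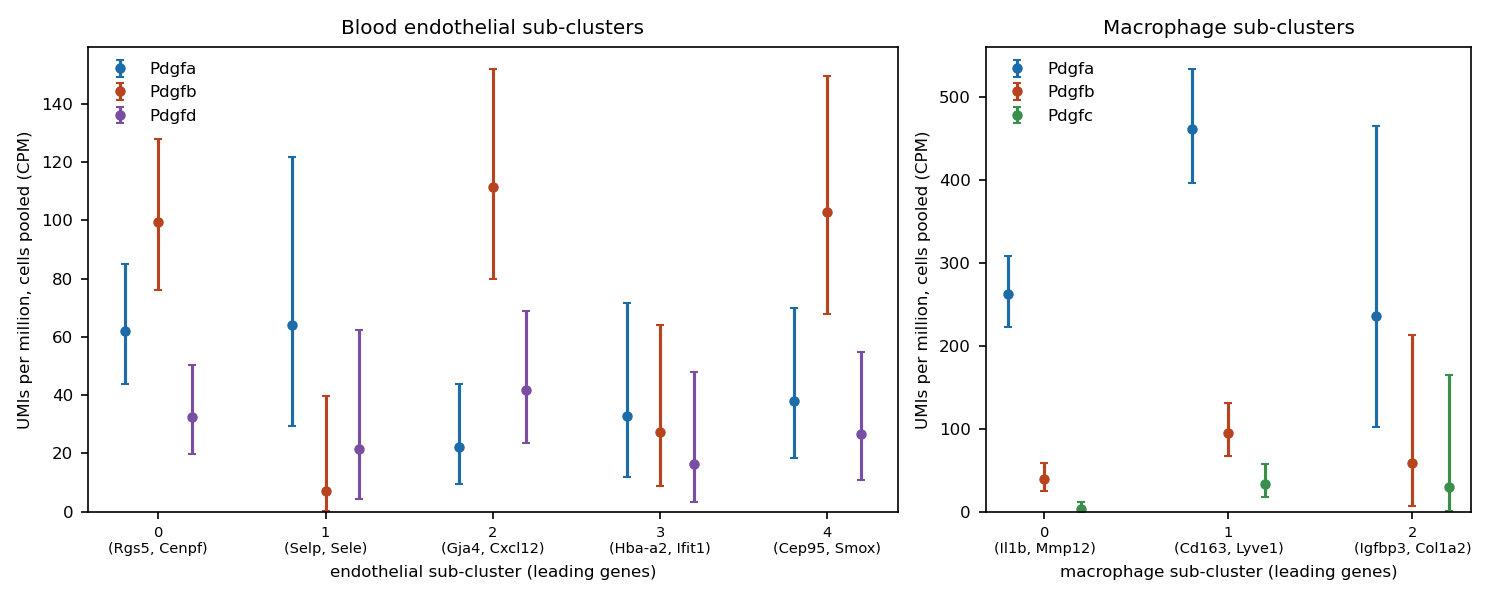
Ligand genes in sub-clusters of blood endothelial-like (left) and macrophage-like cells (right). The y axis is CPM over all cells of a sub-cluster and bars are exact 95% Poisson intervals, which cover counting error only; Pdgfb is low in the Selp and Sele sub-cluster (1 UMI), and Pdgfa, Pdgfb and Pdgfc are higher in the Cd163 and Lyve1 than in the Il1b and Mmp12 macrophage sub-cluster.

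Within the ligand-bearing classes levels were described by sub-cluster, with no test. Blood endothelial-like cells formed 5 sub-clusters. Pdgfb was at 102 ± 17.6 CPM in sub-cluster 0 (95 cells, unnamed, led by genes such as Cenpf and Rgs5, with the arterial marker Bmx raised), 106 ± 40.9 CPM in sub-cluster 2 (199 cells, unnamed, with 2 of 7 arterial markers raised, Gja4 and Fbln5) and 103 ± 9.21 CPM in sub-cluster 4 (177 cells). It was at 18.7 ± 26.4 CPM in sub-cluster 3 (72 cells, Hba-a2 and Ifit1, 5 UMIs). In the venous-like sub-cluster 1 (32 cells with Selp, Sele, Nr2f2 and Lrg1 raised) a single UMI gave 5.05 ± 7.14 CPM, and its interval of 0.181 to 39.7 CPM lay below those of sub-clusters 0, 2 and 4.

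Pdgfa was at 52.5 ± 39.9 CPM in the venous-like sub-cluster (9 UMIs) and 23.3 ± 6.63 CPM in sub-cluster 2 (8 UMIs). Pdgfd was at 29.4 ± 27.2 CPM (3 UMIs) and 45.4 ± 24.8 CPM (15 UMIs) there. Poisson intervals of these 2 sub-clusters overlapped for Pdgfa (29.4 to 121.9 and 9.64 to 44.0 CPM) and for Pdgfd (4.41 to 62.5 and 23.4 to 69.0 CPM). No order of them could be told for either gene. Sub-cluster 0 held 15 of the 23 Pdgfrb UMIs of blood endothelial-like cells, at a median of 5181 UMIs per cell, and had the pericyte marker Rgs5 at 444 CPM, against 68.6 to 165 CPM in the other sub-clusters. Whether pericyte RNA or doublets added to Pdgfrb there was not tested.

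Macrophage-like cells formed 3 sub-clusters, looked at after the class values were seen. Sub-cluster 1 (234 cells), led by Cd163, Lyve1 and F13a1, genes of tissue-resident macrophages, had Pdgfa at 461 ± 0.50 CPM, Pdgfb at 98.7 ± 21.2 CPM and Pdgfc at 33.5 ± 0.05 CPM. Sub-cluster 0 (223 cells), led by Il1b and Mmp12, had Pdgfa at 263 ± 0.36 CPM, Pdgfb at 38.1 ± 8.85 CPM and Pdgfc at 3.47 ± 0.72 CPM. All 3 ligand genes were thus at a higher level in the Cd163 and Lyve1 cells in both biological replicates. Of the 16 macrophage UMIs of Pdgfc 13 were in them. These SDs come from 2 values, and the exact Poisson intervals were wider. In sub-cluster 1 they were 396 to 534 CPM (Pdgfa), 67.1 to 131 CPM (Pdgfb) and 17.8 to 57.2 CPM (Pdgfc). In sub-cluster 0 they were 223 to 308, 24.7 to 58.6 and 0.411 to 12.3 CPM, the last from 2 UMIs. Median depths were 1434 UMIs in sub-cluster 1 and 2404 in sub-cluster 0. How many of all genes were higher in sub-cluster 1 in both replicates was not counted. Sub-cluster 2 (17 cells) carried fibroblast genes such as Col1a2 and held 6 of the 18 macrophage Pdgfra UMIs.

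Among fibroblast-like cells, 5 states had enough cells to test, each called by 2 of its genes. They were Cd248 and Stmn2 (1389 cells), Has1 and Pcolce2 (597), Saa3 and Niacr1 (443), F3 and Nrg1 (352), and Rbp4 and Aldh1a1 (346). The F3 and Nrg1 and the Saa3 and Niacr1 states both raised markers of the list for subepithelial F3 fibroblasts, with Bcr and Niacr1 raised in each. The F3 and Nrg1 state also raised 3 of the 5 markers of the Rbp4 and Aldh1a1 list. Pdgfra, Pdgfrb, Pdgfd and Pdgfa passed the gene filter here, and Pdgfb (6 UMIs) and Pdgfc (10 UMIs) did not. Of 20 tests of a member in a state against the mean of the others, 3 were called higher and 3 lower (15% each, against 13.4% and 9.58% of all gene tests). Pdgfra was called higher in the F3 and Nrg1 and the Rbp4 and Aldh1a1 states (log2 fold changes 1.05 ± 0.12 and 0.69 ± 0.14 over the mean of the others, adjusted p = 1.5e-12 and 4.0e-05; of all genes 15.8% and 8.82% were higher and 8.05% and 10.3% lower there) and lower in the Cd248 and Stmn2 state (-1.17 ± 0.12, adjusted p = 3.2e-14). It was also called lower in the Saa3 and Niacr1 state (-0.42 ± 0.14, adjusted p = 0.025), a call lost in 10 alternatives. Pdgfd was called higher in the Saa3 and Niacr1 state (1.58 ± 0.49, adjusted p = 0.020) and lower in the Has1 and Pcolce2 state (-1.92 ± 0.70, adjusted p = 0.025; of all genes 19.1% were higher and 14.4% lower there), and neither call held with DESeq2. The lower call was lost in 4 of the 8 alternatives that tested it (of 21) and the higher call in 1 of 7, and Pdgfd passed the gene filter through the Saa3 and Niacr1 state alone. Of 40 tests of a member between 2 states 10 passed (25%, against 22.3%).

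**Figure D4:**
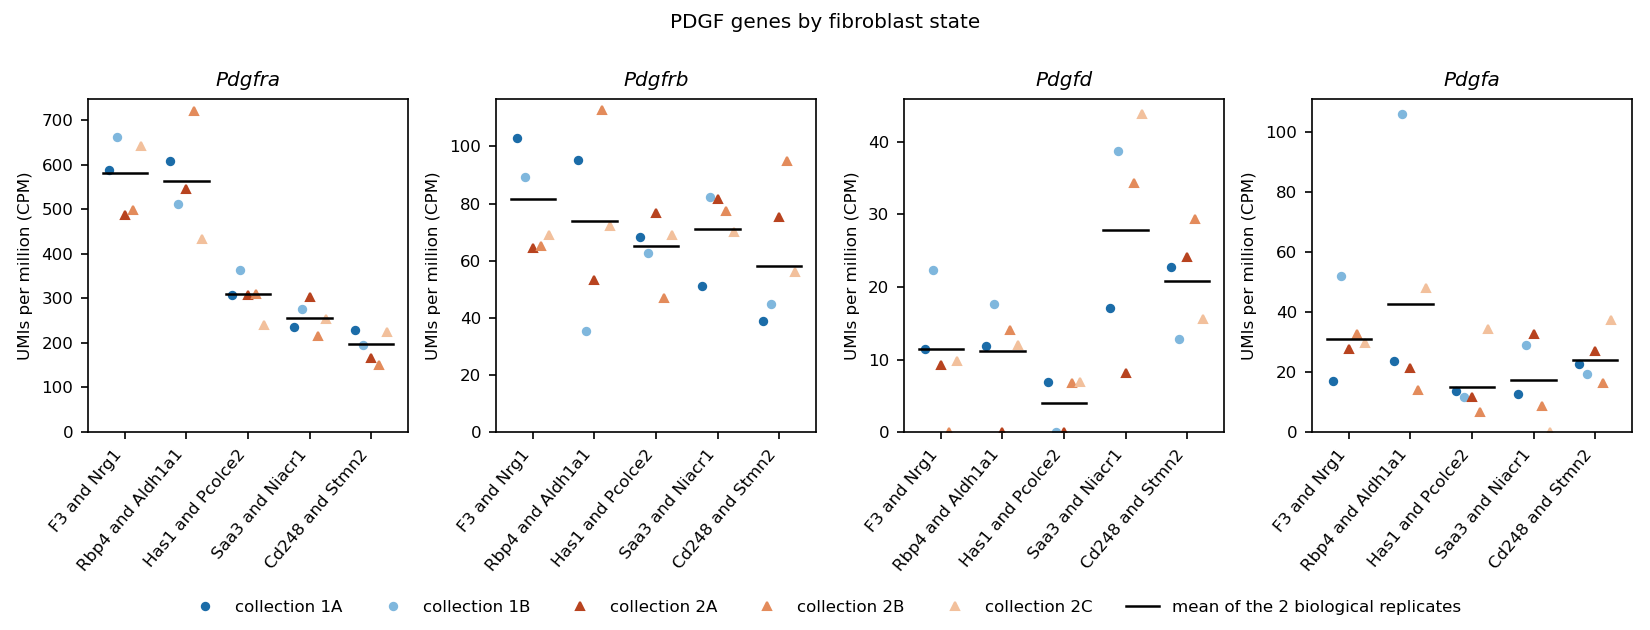
Levels of Pdgfra, Pdgfrb, Pdgfd and Pdgfa in 5 fibroblast states. The y axis is CPM (linear, a separate scale per gene), circles and triangles are the collections of biological replicates 1 and 2, and bars the mean of the 2 replicates; Pdgfra is at 581 and 563 CPM in the F3 and Nrg1 and the Rbp4 and Aldh1a1 states and at 197 to 311 CPM in the others.

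Pdgfra was high in 2 states and lower in the other 3. In the F3 and Nrg1 state it was at 589, 662, 488, 499 and 641 CPM in collections 1A to 2C, and in the Rbp4 and Aldh1a1 state at 608, 512, 544, 719.7 and 432.5 CPM. In the Has1 and Pcolce2 state it was at 308, 364, 307, 309 and 241 CPM, in the Saa3 and Niacr1 state at 235, 276, 302, 215 and 254 CPM, and in the Cd248 and Stmn2 state at 228, 195, 166.5, 150.3 and 225 CPM. Every collection of the first 2 states lay above every collection of the other 3. How many of all genes separate these states in this way was not counted.

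The F3 and Nrg1 and the Rbp4 and Aldh1a1 states (581 ± 55.2 and 563 ± 8.56 CPM) did not differ beyond their spread (log2 fold change 0.29, interval -0.03 to 0.61, adjusted p = 0.21, edgeR), and at a clustering resolution of 0.5 the order turned (-0.116). The F3 and Nrg1 state was above the Has1 and Pcolce2 state (311 ± 33.3 CPM; 0.97 ± 0.15, adjusted p = 1.1e-07) and above the Saa3 and Niacr1 state (256 ± 2.28 CPM; 1.18 ± 0.16, adjusted p = 1.6e-09). It was furthest from the Cd248 and Stmn2 state (197 ± 24.3 CPM; 1.78 ± 0.15, adjusted p = 6.6e-19; 30.7% of all genes passed). With clusters made from separate UMIs of the same cells, the cluster matched to the F3 and Nrg1 state (706 cells) held 47.8% cells of that state, and its log2 fold change over the Cd248 and Stmn2 state was 0.92. The Rbp4 and Aldh1a1 state was above the Has1 and Pcolce2 state (0.68 ± 0.17, adjusted p = 7.6e-04; 30.1% of all genes passed), which was not above the Saa3 and Niacr1 state beyond the spread (0.21, interval -0.11 to 0.54). The Saa3 and Niacr1 state was above the Cd248 and Stmn2 state (0.59 ± 0.17, adjusted p = 0.0038).

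In single cells of the F3 and Nrg1 state Pdgfra UMIs were found in 56.8% of 352 cells (51.6 to 61.9%) and in 30.5% of the 341 cells that could be thinned to 600 UMIs. In the Cd248 and Stmn2 state they were found in 19.7% of 1389 cells (17.7 to 21.9%), or 11.1% of 1237 thinned cells. The median depths of these states were 1632 and 1144 UMIs. In the Rbp4 and Aldh1a1 state, the shallowest at a median of 986.5 UMIs, the shares were 39.6% and 25.8%.

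Pdgfrb had means between 58.2 ± 23.9 CPM (Cd248 and Stmn2) and 81.6 ± 21.8 CPM (F3 and Nrg1) over the states. None of its 10 pairs passed. The widest, F3 and Nrg1 over Cd248 and Stmn2, had a log2 fold change of 0.68 (SE 0.29, adjusted p = 0.082, edgeR). Taken as Cd248 and Stmn2 over F3 and Nrg1, its unadjusted interval was -1.25 to -0.11, so equal levels were not shown. In the Cd248 and Stmn2 state the collections of replicate 1 were at 38.8 and 44.8 CPM and those of replicate 2 at 75.2, 94.7 and 56.2 CPM, and in the F3 and Nrg1 state at 103 and 89.3 CPM and at 64.4, 65.0 and 69.0 CPM. Replicate 1 alone gave 1.31 (adjusted p = 0.015), and leaving out collection 1A gave 0.34 (adjusted p = 0.56). The fit of replicate 1 alone took its collections as units, so its p-value covers the spread between collections and not between biological replicates. The share of cells with Pdgfrb UMIs among those with and without Pdgfra UMIs was 12.5% and 12.5% in the F3 and Nrg1 state and 7.30% and 6.91% in the Cd248 and Stmn2 state.

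Of the ligands, Pdgfd was at 17.1, 38.8, 8.2, 34.3 and 43.8 CPM in the Saa3 and Niacr1 state (22 UMIs), 22.8, 12.8, 24.2, 29.4 and 15.6 CPM in the Cd248 and Stmn2 state (37 UMIs), and 6.8, 0, 0, 6.7 and 6.9 CPM in the Has1 and Pcolce2 state (4 UMIs). Each value of the first 2 states was above each of the last, but the last rested on 4 UMIs, so this order lies near the floor. The share of all genes that separate in this way was not counted. Pdgfd passed the gene filter through the Saa3 and Niacr1 state alone, so the calls for that state were in part set by the filter. The Saa3 and Niacr1 state passed against the Has1 and Pcolce2 state (27.8 ± 0.75 and 3.98 ± 0.47 CPM; log2 fold change 2.80 ± 0.73, adjusted p = 0.0017, edgeR) and did not differ from the Cd248 and Stmn2 state beyond the spread (20.8 ± 3.09 CPM; 0.61, interval -0.34 to 1.55). The Cd248 and Stmn2 state also passed against the Has1 and Pcolce2 state (2.19 ± 0.70, adjusted p = 0.013; 31.4% of all genes passed). With DESeq2 the first value was 2.83 with an adjusted p of 0.060, and in the fits without a collection Pdgfd was not tested. Pdgfa was at 15.02 to 42.6 CPM in the 5 states and no pair passed; its highest mean, in the Rbp4 and Aldh1a1 state (42.6 ± 20.3 CPM), rested on collection 1B with 106 CPM, against 14.1 to 48.1 CPM in the other collections.

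The genes whose levels over the 10 tested classes were most like those of each member were ranked by Pearson's r of log2(CPM + 10), as a description of 10 points that share libraries and cells. For Pdgfra they were Clec3b (r = 0.98), Wnt4 (0.98) and Ces1d (0.98), of which Clec3b was also among the genes that led the fibroblast-like class. For Pdgfrb they were Pcdh19 (0.98), Ggt5 (0.96) and Cisd3 (0.96). For Pdgfa they were Mapre2 (0.92), 4931406C07Rik (0.89) and Rgl1 (0.89), and for Pdgfb Sdcbp (0.95), Mcl1 (0.89) and Sh3bp4 (0.88). For Pdgfc they were Actc1 (0.93), Gm10664 (0.92) and Sntg2 (0.90), each with 18 to 23 UMIs in smooth muscle-like cells and at most 9 in any other class. For Pdgfd they were Ppap2a (0.94), Tmem184b (0.92) and Zhx3 (0.92), which had more UMIs in blood endothelial-like and fibroblast-like cells than in any other class.

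**Figure D5:**
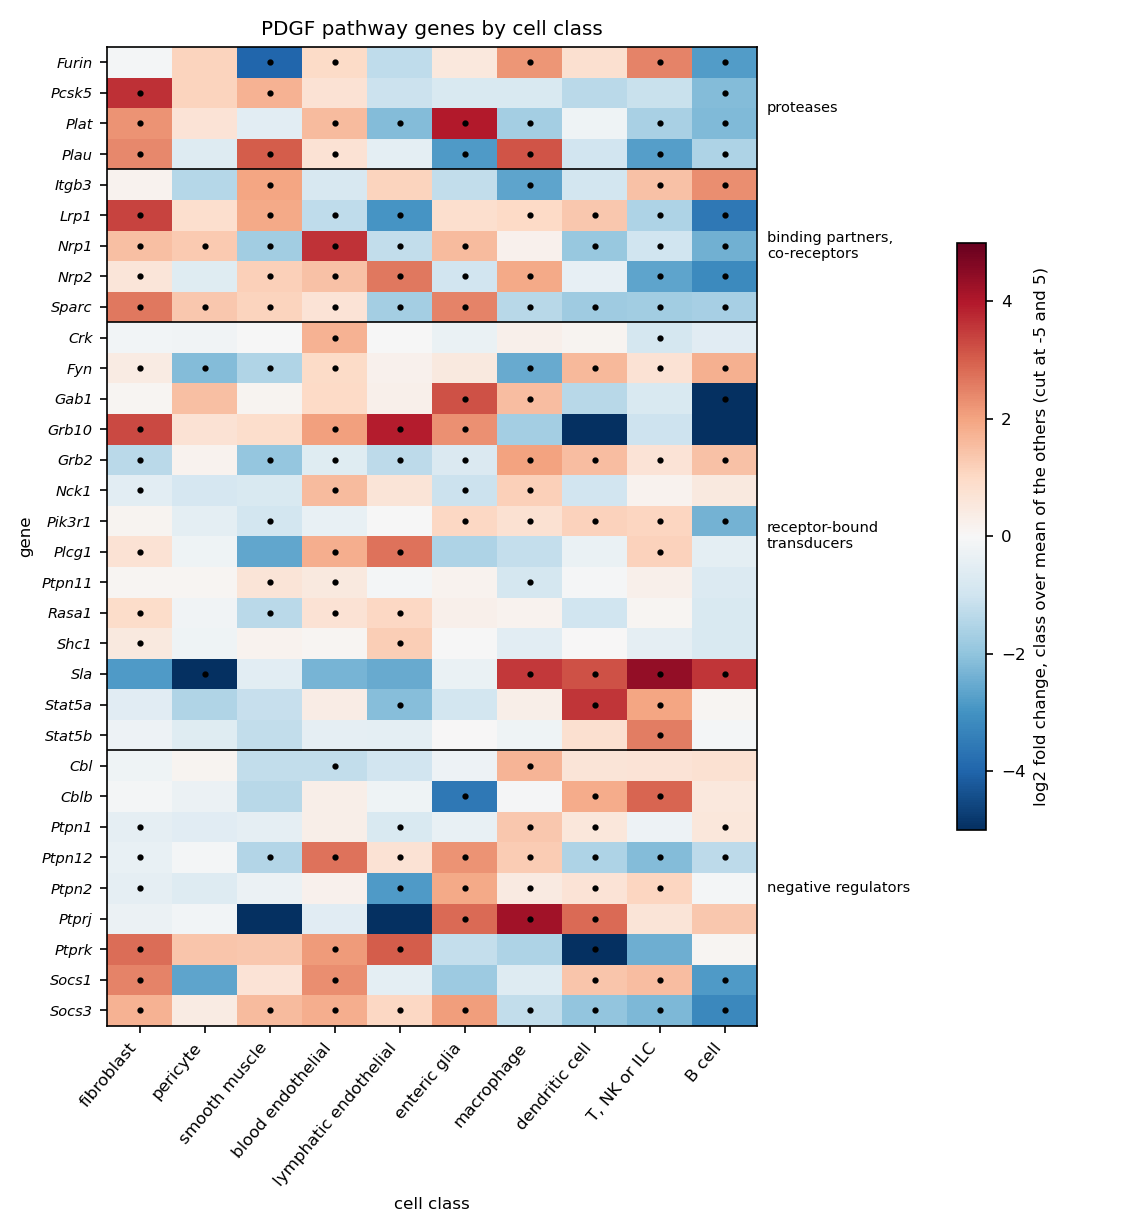
PDGF pathway genes in 10 cell classes. Colour is the log2 fold change of a class over the mean of the others, cut at -5 and 5, black dots mark an adjusted p under 0.05, and lines part the 4 gene groups; among proteases and co-receptors, Pcsk5 and Lrp1 are high in fibroblast-like cells, Nrp1 in blood endothelial-like cells and Plat in glia-like cells.

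Other genes of the pathway were followed as a list of 39, of which 32 passed the gene filter: proteases that cut latent ligands, partners that bind ligands or receptors, transducers that dock on the active receptors, and negative regulators. In fibroblast-like cells 15 were higher and 5 lower (background 34.2% and 13.4%), with a median log2 fold change of 0.15, against 0.18 over all genes. They included 3 of 4 proteases and 4 of 5 partners, and no gene of either group was lower. Pcsk5, a proprotein convertase that can process PDGF-A, was at 199.7 ± 47.3 CPM (3.64 ± 0.19, adjusted p = 4.5e-61, edgeR), Lrp1, an endocytic receptor that associates with the beta receptor, at 231 ± 10.9 CPM (3.38 ± 0.15, adjusted p = 1.8e-77), and the receptor-binding adaptor gene Grb10 at 48.3 ± 0.50 CPM, where B cell-like and dendritic cell-like cells held no UMI (adjusted p = 5.4e-18).

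In pericyte-like cells, the class with the highest Pdgfrb, 2 list genes were higher, 2 lower and 28 did not pass (background 14.1% and 7.29%). Sparc, whose product binds PDGF-B, was at 3608 ± 76.1 CPM (1.34 ± 0.09, adjusted p = 6.8e-38), the kinase gene Fyn was lower at 24.3 ± 14.2 CPM (-2.18 ± 0.50, adjusted p = 1.6e-04), and Sla, an adaptor of immune cells, had no UMI (floor 11.7 CPM, adjusted p = 0.020). In smooth muscle-like cells 8 were higher and 7 lower (background 19.0% and 10.7%). The urokinase gene Plau, whose product can cut PDGF-D, was at 339 ± 101 CPM (3.04 ± 0.25, adjusted p = 1.1e-29) and the integrin gene Itgb3 at 65.1 ± 6.03 CPM (1.99 ± 0.47, adjusted p = 2.1e-04). Furin, another convertase, held 1 UMI there (adjusted p = 1.1e-04).

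In the ligand-bearing classes, blood endothelial-like cells had 17 list genes higher and 3 lower (background 30.3% and 15.4%; median log2 fold change 0.71, against 0.06 over all genes). Nrp1, a co-receptor, was at 902 ± 23.2 CPM (3.63 ± 0.12, adjusted p = 4.7e-126), the phosphatase gene Ptpn12 at 544 ± 35.99 CPM (2.71 ± 0.12, adjusted p = 5.8e-77) and Socs1, a suppressor of cytokine signalling, at 82.5 ± 17.3 CPM (2.34 ± 0.28, adjusted p = 6.9e-15). Glia-like cells had 10 higher and 5 lower (background 24.2% and 12.8%). Plat, the tissue plasminogen activator that frees PDGF-C, was at 425 ± 25.02 CPM (3.95 ± 0.20, adjusted p = 5.5e-67) and Gab1 at 58.1 ± 15.7 CPM (adjusted p = 9.2e-09), while the ubiquitin ligase gene Cblb held 1 UMI (adjusted p = 5.3e-04).

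Macrophage-like cells had 14 higher and 6 lower (background 28.1% and 16.6%). Ptprj, a phosphatase of the beta receptor, was at 99.9 ± 15.3 CPM (adjusted p = 3.3e-26), Plau at 315 ± 1.51 CPM (3.13 ± 0.18, adjusted p = 1.5e-54) and Sla at 105 ± 22.4 CPM (adjusted p = 1.2e-24). In lymphatic endothelial-like cells 8 were higher and 8 lower (background 20.7% and 13.2%), with Grb10 at 83.6 ± 34.97 CPM (adjusted p = 4.6e-13) and Ptprk at 68.1 ± 45.2 CPM (adjusted p = 5.3e-08), and Lrp1 at 5.20 ± 0.97 CPM was lower (-2.94 ± 0.81, adjusted p = 0.0015).

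The 3 other immune classes, which held few PDGF UMIs, had 11, 12 and 5 list genes higher and 5, 9 and 13 lower in dendritic cell-like, T/NK/ILC-like and B cell-like cells (background 18.4%, 23.7% and 18.9% higher, 11.5%, 16.1% and 16.4% lower). Sla was higher in each of them, at 96.5 ± 23.5, 214.5 ± 48.6 and 137 ± 19.5 CPM. Stat5a stood at 173 ± 85.3 CPM in dendritic cell-like cells (3.57 ± 0.35, adjusted p = 6.0e-21), which held no Ptprk UMI (floor 10.0 CPM, adjusted p = 0.042). Cblb stood at 139.9 ± 52.9 CPM in T/NK/ILC-like cells (2.91 ± 0.30, adjusted p = 1.2e-19), where Plau was lower at 11.2 ± 11.7 CPM (-2.77 ± 0.54, adjusted p = 3.3e-06). In B cell-like cells Lrp1 held 1 UMI (adjusted p = 9.4e-04) and Gab1 none (floor 10.6 CPM, adjusted p = 0.046). Of the 32 genes 5 had a class at 0 UMIs and could not be called lower in the others.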

How the data were processed

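The tables the authors deposited hold UMI counts (whole numbers, not normalised) of each gene in each barcode. The submitters' processing notes name STAR 2.6 and mm10. The counting program, its annotation, strand setting and barcode rule are not given in the sources used here. Barcodes with fewer than 300 genes (1263) or, of the rest, more than 10% mt- UMIs (667) were left out. Scrublet marked 23 of 6005 (0.383%), a share below 0.5% at which the caller is taken not to have worked. The marked barcodes were left out, 5982 cells remained, and other doublets stayed in.

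For clustering, each cell was scaled to 10000 UMIs and logged, and 30 components of 2000 variable genes were used (scanpy 1.11.5, Leiden, 15 neighbours, resolution 1.0, or 0.5 within the fibroblast-like cells). The PDGF genes and the pathway list took no part in the clustering. Clusters were named where at least 3 markers of a class reached 2 times the median cluster with at least 10 UMIs each. Fibroblast states and endothelial sub-clusters were named by the same limits, but against all other cells of their class. Where 2 clusters took the list for subepithelial F3 fibroblasts, that with more Saa3 was called Saa3 and Niacr1 and the other F3 and Nrg1. No cell annotation was used, so names were rebuilt.

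UMIs were summed per biological replicate and class, or fibroblast state, with at least 20 cells in each replicate. The test was that of edgeR 4.0.16, run in R 4.3.3 (genes kept by filterByExpr, TMM factors, two-sided quasi-likelihood F test). Biological replicate entered as a block, since the classes of 1 replicate came from the same suspension. Each class was compared with the other classes' mean log level (Benjamini-Hochberg over the genes of that contrast), and every pair of classes was compared (adjusted over genes and pairs together). All adjusted p-values are from these fits, with a threshold of 0.05. A gene with a class at 0 UMIs (1460 of the 6917 genes tested) can be called higher but not lower in other classes, because a mean of logs has no lower limit there. Cells that formed the clusters also gave the sums, so p-values are smaller than in independent cells. On simulated counts, 94 of 100 genes changed 4-fold and 50 of 100 changed 2-fold in a class were called, with 4 false calls among 148. The simulation held all other genes level over the classes and had no clustering step, so its false calls do not carry over to these data.

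Members, gene lists and markers were chosen with earlier results of these data known. Genes named were the members, class markers, the 3 genes most correlated with each member, up to 3 called pathway genes per class and the genes that led each class or cluster. Intervals are 95%: Wilson for shares of cells, exact Poisson for UMI counts, and 1.96 SE for log2 fold changes. A count of 0 is given with a floor of 3 counts. The first 2 kinds of interval and the floor cover counting error only. Alternatives covered normalisation, test, filters, blocks, clustering and each collection left out in turn. Leaving out a whole biological replicate was added after seeing the data. Those fits took the collections of the remaining replicate as units, so their p-values and calls cover the spread between collections only.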

Additional observations from a re-analysis of the deposited data

Results flagged for a closer look

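Pdgfa was found in enteric neuron-like cells, a class of 27 cells that was too small to test and that the comparisons left out. It held 8 UMIs, 7 in biological replicate 1 and 1 in replicate 2, above the 3 UMIs that a count of 0 allows. Over the class this is 70.9 CPM (exact 95% Poisson interval 30.6 to 139.6 CPM). Summed glial markers in these cells were at 496 CPM, against 5795 CPM in glia-like cells, and whether glial RNA added to Pdgfa there was not tested. Dixon's criterion was applied to 22 member and class or state levels over the 5 collections (the 2 highest classes of each member, and both receptors in the 5 states), and 0 had a collection apart from the others.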

How the results depend on the processing

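Of the 12 fold changes followed over the alternatives, 7 kept their direction and their side of the threshold wherever they were tested: Pdgfa, Pdgfb, Pdgfc, Pdgfra and Pdgfrb between their 2 highest classes, and Pdgfra (F3 and Nrg1 over Cd248 and Stmn2) and Pdgfa (Rbp4 and Aldh1a1 over Has1 and Pcolce2) between states. Their ranges over the fits that leave out a collection or a replicate are, in log2, 0.0775 to 0.328 for Pdgfa and 0.21 to 0.52 for Pdgfb, both below the threshold throughout, 2.08 to 2.62 for Pdgfc, 3.53 to 4.47 for Pdgfra, 2.21 to 2.74 for Pdgfrb, 1.62 to 1.81 for Pdgfra and 1.18 to 1.88 for Pdgfa between states. Between classes Pdgfb was tested in 17 of 20 alternatives and Pdgfc in 14, and between states Pdgfa in 13 of 21. Pdgfc passed the gene filter through smooth muscle-like cells alone and Pdgfra, between classes, through fibroblast-like cells alone. The calls and ranges of these 2 genes between classes were thus in part set by the filter. Pdgfd between classes had no test beside the fit with no filter (0.939). For the other results the cause was not tested. Pdgfd (Saa3 and Niacr1 over Has1 and Pcolce2) was 2.83 and no longer passed with DESeq2 (adjusted p = 0.0596), and over Cd248 and Stmn2 it was 1.33 and passed at resolution 2.0 (adjusted p = 0.0236). Pdgfra (F3 and Nrg1 over Rbp4 and Aldh1a1) reversed to -0.116 at resolution 0.5 and ranged from 0.0204 to 0.374 with a collection or replicate left out. Pdgfrb (F3 and Nrg1 over Cd248 and Stmn2) passed at resolution 0.5 (0.73) and ranged from 0.344 to 1.31 with a collection or replicate left out, 1.31 without biological replicate 2 passing. That last fit took the collections of replicate 1 as its units.

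Counts of calls moved more. Members called higher in a class numbered 12, and 7 to 12 with a collection or replicate left out; lower calls numbered 4, 7 with sums per collection and 1 to 6 with one left out. Between states the 3 higher calls were 1 with split UMIs and 2 with any one left out, and the 3 lower calls were 1 with DESeq2, at least 500 genes, at most 20% mt- UMIs, PDGF genes kept in the clustering or split UMIs, and 1 to 3 with one left out. Pathway calls were 102 higher (52 to 97 with one left out) and 63 lower (37 with split UMIs, 29 to 57 with one left out). Without the replicate block Pdgfra (F3 and Nrg1 over Cd248 and Stmn2) was 1.78 and Pdgfrb 0.659, and no call on a followed fold change moved. Over all genes, calls against the mean of the other classes numbered 16027 higher and 9221 lower, against 10190 and 4995 with split UMIs, 11472 and 5713 in replicate 1 alone and 6676 and 3653 in replicate 2 alone. For states they numbered 4398 and 3149, against 2309 and 1581 with DESeq2, 2447 and 2003 with split UMIs, 2800 and 1809 in replicate 1 alone and 2282 and 1724 in replicate 2 alone. With split UMIs and at resolution 0.5 no cluster held more Saa3 and Niacr1 cells than cells of another state, so that state gave no value. Depth limits Pdgfb and Pdgfc in classes at 0 UMIs: in B cell-like cells 3 UMIs, the floor used, are 10.6 CPM.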

Other observations

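Finer clusters showed spread within 2 of the groups above. Enteric glia-like cells came from 2 clusters, and Pdgfa was at 154 ± 72.2 CPM in the smaller (30 cells, 12 UMIs, led by genes such as Cpe and Scg3), against 452 ± 43.5 CPM in the larger (269 cells, 200 UMIs, led by genes such as Kcna1 and Chl1). At a fibroblast resolution of 1.0 the Has1 and Pcolce2 state fell into 2 clusters, with Pdgfra at 378 ± 111 CPM in the smaller (243 cells) and 266 ± 3.79 CPM in the larger (354 cells). A mitotic cluster of 30 fibroblast-like cells, led by Top2a and Hmmr, held 8 Pdgfra UMIs, all in biological replicate 2. These are values without a test.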
